A study of Caenorhabditis elegans with 2 samples.

Results

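NHR-48 is a nuclear hormone receptor of Caenorhabditis elegans, and 815 of its 3338 nuclear binding peaks lay in promoters that face genes of 1 direction only. A peak was counted when its summit, the base of strongest signal, lay in no annotated gene, more than 500 bp from any tRNA gene, and inside promoter windows of genes of a single strand. The promoter window of a protein-coding transcript covered the 1000 bp before its 5′ end and the first 200 bp after it. These one-direction promoter peaks made up 24.4% of the nuclear peaks (exact 95% interval 22.97% to 25.9%). Among the 1872 intergenic peaks far from tRNA genes they were 43.5%. Another 229 such peaks were divergent, with windows of both strands over the summit, and 828 were distal, outside any window. The windows of 787 of 19973 nuclear protein-coding genes (3.94%) held a one-direction peak.

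The data came from chromatin immunoprecipitation with sequencing (ChIP-seq) of whole hermaphrodite larvae at the L4 stage, 48.5 h after synchronisation as starved L1 larvae. The strain, OP518 (unc-119(tm4063) III; wgIs518), carries a stable integrated transgene for NHR-48 whose C terminus carries a GFP-FLAG tag, and the antibody was against GFP. Both libraries were biological replicates of this 1 group, and no other tagged protein, untagged strain or other condition was analysed here. Binding is therefore that of a tagged protein from a transgene, read from whole animals without telling tissues apart.

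Nuclear hormone receptors are transcription factors with a zinc finger domain that contacts DNA and a second domain that, in many members, binds a small lipophilic molecule. The family is strongly expanded in nematodes. NHR-48 is grouped by sequence with DAF-12, a receptor that controls larval development, and with NHR-8. A one-direction promoter belongs to a gene whose upstream neighbour either points the same way, a tandem arrangement, or points away with its 5′ end far off, a head-to-head arrangement. Because the genes faced are all of one strand, each base of the promoter has a defined strand and direction.

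Windows of 100 bp around summits are printed below for the strongest peaks and for the motifs that the sequence results turn on. All were read from the RefSeq genome of the ce11 build, 5′ to 3′ on the strand of the gene, and capitals mark, in either orientation, the 6-letter motifs named with these windows. The strongest one-direction peak faced F28C10.3 (chrX:535905-536004, minus strand), and its capitals mark ACGCAG read from the other strand. That of rpl-3 (chrIII:3867526-3867625, plus strand) came next and held none of the motifs. That of F21C10.10 (chrV:9095756-9095855, plus strand) held ACGCAG and CACGTG, the core of an E-box.
F28C10.3: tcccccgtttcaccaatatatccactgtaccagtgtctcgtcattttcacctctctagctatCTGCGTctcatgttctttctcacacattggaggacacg
rpl-3: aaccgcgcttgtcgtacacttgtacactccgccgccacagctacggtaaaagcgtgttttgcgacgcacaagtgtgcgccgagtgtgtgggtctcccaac
F21C10.10: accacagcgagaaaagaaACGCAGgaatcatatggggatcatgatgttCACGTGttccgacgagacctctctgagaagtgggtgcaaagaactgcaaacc

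The next set shows the other motifs, each in the strongest peak that holds it outside 1 chromosome from which no sequence is given. The peak of mdl-1 (chrX:6742171-6742270, plus strand) held AGTTCA and CACGTG. Capitals mark GAGAGA, read as TCTCTC, at lgg-2 (chrIV:10936176-10936275, minus strand), and TGATAA, the core bound by GATA factors, at W07E11.1 (chrX:10084125-10084224, plus strand). At C30G12.2 (chrII:7290100-7290199, plus strand) they mark a pair of AGTGCA matches, and at cts-1 (chrIII:10216877-10216976, minus strand) AGGTCA, read from the other strand, and a further AGTGCA. These 2 motifs and the AGTTCA of mdl-1 are core motifs of the kind that nuclear hormone receptors contact and are called receptor cores here.
mdl-1: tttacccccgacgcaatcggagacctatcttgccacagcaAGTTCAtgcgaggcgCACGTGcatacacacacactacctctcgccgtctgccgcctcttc
lgg-2: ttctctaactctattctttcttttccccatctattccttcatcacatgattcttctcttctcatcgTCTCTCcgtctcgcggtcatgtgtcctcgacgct
W07E11.1: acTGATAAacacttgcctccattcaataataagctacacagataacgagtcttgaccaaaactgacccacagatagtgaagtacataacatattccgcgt
C30G12.2: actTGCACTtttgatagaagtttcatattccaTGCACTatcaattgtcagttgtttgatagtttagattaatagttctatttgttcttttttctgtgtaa
cts-1: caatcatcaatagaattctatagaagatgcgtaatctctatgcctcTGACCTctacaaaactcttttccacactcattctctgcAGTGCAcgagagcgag

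The last pair shows the promoter of nhr-48 itself and the single peak with a GA repeat, an E-box core and a GATA-type motif together (GAGAGA read as TCTCTC, then CACGTG, then TGATAA). The main summit at nhr-48 (chrX:15707520-15707619, plus strand) held GAGAGA. T09F3.2 (chrII:10390622-10390721, plus strand), which encodes an uncharacterized protein, was chosen after its values were seen.
nhr-48: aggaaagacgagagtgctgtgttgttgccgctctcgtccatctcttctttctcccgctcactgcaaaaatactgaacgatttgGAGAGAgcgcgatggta
T09F3.2: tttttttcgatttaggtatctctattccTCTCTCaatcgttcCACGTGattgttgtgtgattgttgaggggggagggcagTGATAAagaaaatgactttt

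Each value in a peak list is the authors' signal on the scale of their peak caller, used here only to rank and describe peaks within a list. The one-direction peaks ran from 95.4 to 1785 in the list made from both replicates, with a median of 156. The interquartile range was 118 to 252, so most peaks lay far below the strongest ones. Divergent peaks had a median of 149, distal peaks 161 and all nuclear peaks 155. Of the one-direction peaks 50.3% were above the nuclear median, against 47.6% of divergent and 53.1% of distal peaks, and neither difference passed Fisher's exact test (adjusted p = 0.622 for both). With promoter windows of 2000 bp the difference from distal peaks was -6.48 percentage points and passed (Fisher's exact test, adjusted p = 0.0240). Read depth was unknown, since the lists hold no read counts.

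The strongest one-direction peak faced F28C10.3, which encodes a protein with a protein kinase domain, 127 bp upstream of its 5′ end. Its signal was 1785 in the combined list, 1096 in replicate 1 and 698 in replicate 2. The promoter of rpl-3, a protein of the large ribosomal subunit, had 1631, with 965 and 669 in replicates 1 and 2, at 278 bp. F21C10.10, a protein with a 3-hydroxyacyl-CoA dehydrogenase domain, had 1568, with 952 and 626, at 461 bp. In all 3 cases the peak was among the 32 regions of highest signal in each replicate.

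Other strong peaks faced regulators and genes of metabolism. MDL-1, a Mad-like protein that dimerises with a Max-like partner on E-boxes, had a signal of 1383 at its own promoter, with 896 in replicate 1 and 492 in replicate 2, and that window held an E-box core. LGG-2, an Atg8-family protein of autophagosomes, had 1174, with 781 and 399 in the replicates. TATN-1, the tyrosine aminotransferase that starts tyrosine breakdown, had 1115, with 710 and 402. The promoter of serp-1.1, for a stress-associated protein of the endoplasmic reticulum, had 1060, with 616 and 438. These 4 peaks kept a high rank in both replicates, between 33 and 66 in each list.

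The promoter of nhr-48 itself ranked eighth, with a signal of 1023 at 643 bp upstream, 628 in replicate 1 and 393 in replicate 2. A second summit at 419 bp had 227. The labels do not say which upstream sequence the transgene carries, and these lists cannot separate reads of a transgene copy from those of the native locus.

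The remaining peaks of the strongest 20 had signals from 764 to 999. They faced R02E4.3, ZK1290.5, a putative oxidoreductase, and slc-36.4, an amino acid transporter, with 999, 997 and 982 in that order. Next came nspc-17 with 946, H41C03.3 with 909 and eelo-2, with a peptidase domain, with 847. The peak of tos-1 had 831 and that of cdc-48.1, the AAA ATPase that extracts ubiquitylated proteins, had 827. F56H9.2 had 796, F02E9.5 had 777, zyg-11, a substrate receptor of a cullin ubiquitin ligase, had 766 and ain-1, a partner of microRNA Argonautes, had 764. None of these 20 windows occurs more than once in the genome; among all 815, 1 window did, in 11 copies, with a signal of 96.6.

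**Figure D1:**
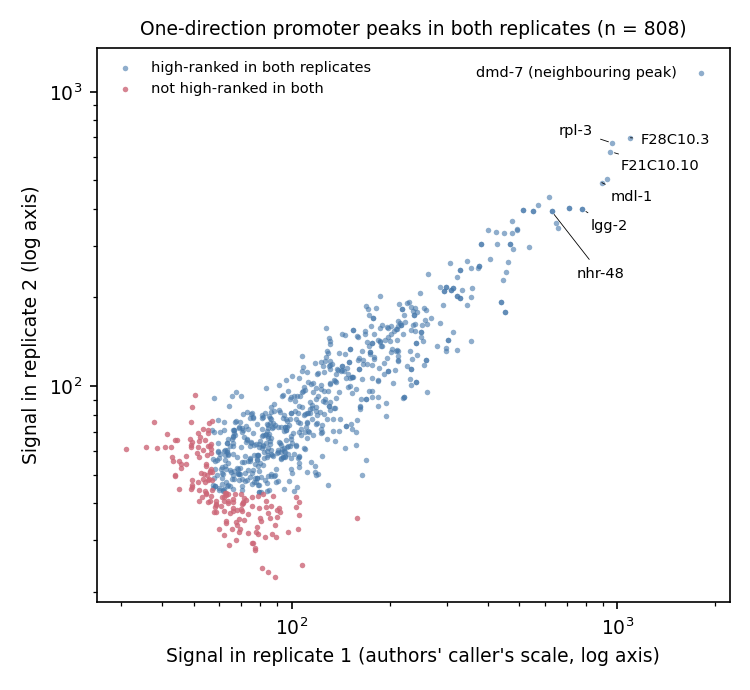
Signal of each one-direction promoter peak in the overlapping region of replicate 1 (horizontal axis) and replicate 2 (vertical axis), both logarithmic and on the authors' caller's scale, for the 808 peaks overlapped in both lists. Blue points overlap one of the 3361 regions of highest signal of each replicate and red points do not; the strongest peaks were high in both, and the point for dmd-7 carries the replicate values of a stronger summit in the same interval.

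The combined list was made from the replicate lists by a procedure that keeps reproducible peaks, so the overlaps with them describe that choice and are no separate support. Some region of replicate 1 overlapped 814 of the 815 peaks, some region of replicate 2 overlapped 809, and both did for 808. Those lists include background regions, so a stricter count used only the 3361 regions of highest signal of each replicate, as many as the combined list holds. By that count 739 peaks (90.7%) were overlapped in replicate 1, 716 (87.9%) in replicate 2 and 648 (79.5%) in both, while 8 were overlapped in neither. The share in both was 82.5% for divergent and 80.6% for distal peaks, and neither difference from the one-direction peaks passed (Fisher's exact test, adjusted p = 0.622 for both). With promoter windows lengthened to 2000 bp before the 5′ end, the share in both replicates was below that of divergent peaks (a difference of -6.69 percentage points) and of distal peaks (-5.07), and both then passed (Fisher's exact test, adjusted p = 0.0134 and 0.0247).

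Weaker peaks were less often overlapped in both replicates, which is partly built in, because the combined signal draws on the same libraries. Among the 203 peaks of highest signal, 203 were overlapped in both replicates. In the 3 following groups of 204 peaks each, in order of signal, the counts were 202, 169 (82.8%) and 74 (36.3%). The weakest peaks, of signal 118 and below, were thus mostly seen among the high-ranked regions of only 1 replicate or of neither. Summit positions were close: the nearest summit of replicate 1 was a median of 10 bp away and that of replicate 2 a median of 14 bp, with 98.7% and 95.6% of peaks within 100 bp.

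Some summits were neighbours within a wide enriched region and cannot be taken as independent. Whether they are separate binding events was not tested. Of the 815 peaks, 91 shared a chain of overlapping nuclear peaks with another one-direction peak, and 23 shared an interval with another listed summit. At 50 genes there was a pair of summits and at 1 gene, eel-1, a HECT-type ubiquitin ligase, there were 3, at 375, 575 and 780 bp with signals of 295, 225.1 and 103.8. The 52 distances between adjacent summits at a gene had a median of 203 bp, 44 were within 20 bp of that median, and no nuclear summits in the list were closer than 199 bp. A replicate value beside a secondary summit can be that of its neighbour: the peak of dmd-7 had a signal of 97.8 in the combined list but 1805 and 1159 in the replicates, where 1 region covered the whole interval. The same holds for the second summits of tatn-1 (158 bp, signal 471) and lgg-2 (538 bp, signal 327).

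All 815 summits lay upstream of the 5′ end, since a summit inside an annotated gene was not counted. The distance ran from 2 to 991 bp, with a median of 266 bp and quartiles of 145.5 and 522.5 bp, and 454 peaks (55.7%) were within 300 bp. The upstream limit cut through a continuous range. The last peaks inside it faced uda-1 at 984 bp, ugt-50 at 985 bp and dnc-1 at 991 bp, with signals of 170, 115.1 and 122. The first outside were those of mstr-1 at 1008 bp, rhy-1 at 1011 bp and Y50D7A.8 at 1013 bp, with signals of 397, 441 and 114.6. The tRNA limit removed 19 peaks; nfm-1, 179 bp from a tRNA gene, and F22B7.9, at 425 bp, fell outside, and C16H3.3, at 687 bp, and C29F7.2, at 752 bp, were the nearest inside.

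**Figure D2:**
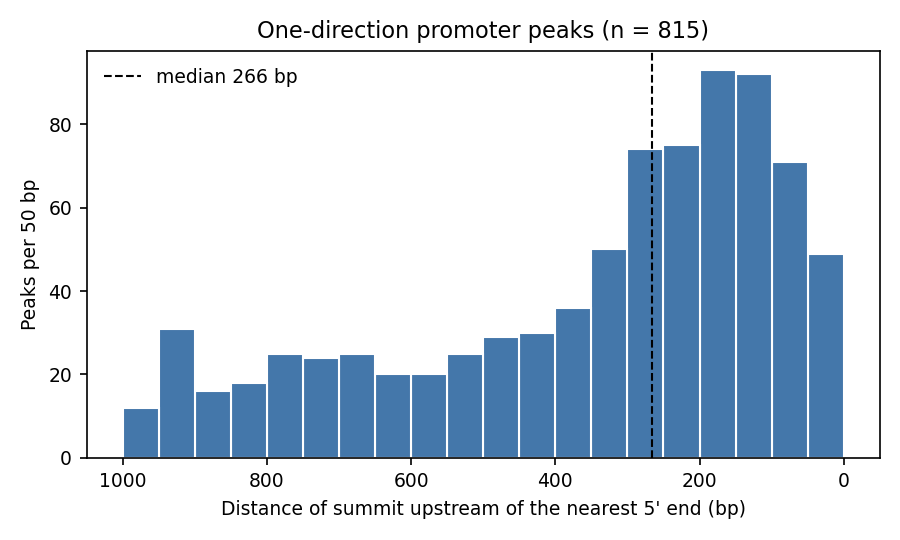
Number of one-direction promoter peaks per 50 bp (vertical axis) by the distance of the summit upstream of the nearest 5′ end in base pairs (horizontal axis, with the 5′ end at the right), n = 815. Peaks are most frequent between 100 and 300 bp and thin out toward 1000 bp, with the median of 266 bp as a dashed line.

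Peaks were densest between 100 and 300 bp upstream. Bases open to the rule, outside genes and tRNA surroundings and under windows of 1 strand, become fewer with distance because neighbouring genes intervene, so counts were set against them. There were 84.0 peaks per megabase of open sequence within 100 bp of the 5′ end, 146 between 100 and 200 bp and 123 between 200 and 300 bp. The density was 77.3 between 300 and 400 bp, 51.6 between 400 and 600 bp, 53.1 between 600 and 800 bp and 49.1 between 800 and 1000 bp. Signal changed little along the way, with medians per distance bin from 147 to 169.

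Tandem promoters held 496 of the peaks (60.9%) and head-to-head ones 319 (39.1%). In tandem promoters the upstream neighbour ended a median of 865 bp from the summit, and 120 summits were nearer to that neighbour's 3′ end than to the 5′ end of the gene they face. In head-to-head promoters the other gene's 5′ end was a median of 3091 bp away. The median signal was 151 in tandem and 164 in head-to-head promoters, and the median distance upstream was 269.5 and 264 bp.

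Chromosome X held 206 of the 815 peaks (25.3%, exact 95% interval 22.3% to 28.4%), or 7.54 peaks per 100 protein-coding genes. The autosomes held between 3.09 (I) and 4.44 (II) per 100 genes. Divergent peaks were on X in 14 of 229 cases (6.11%, 3.38% to 10.04%), and this difference passed Fisher's exact test (odds ratio 5.19, adjusted p = 4.91e-11). Distal peaks were on X in 220 of 828 cases (26.6%), a difference from the one-direction peaks that did not pass (Fisher's exact test, adjusted p = 0.622). With promoter windows of 2000 bp it was -7.35 percentage points and passed (Fisher's exact test, adjusted p = 0.00584). The annotation itself differs in the same direction: X holds 18.8% of the bases open to one-direction peaks, 6.45% of those open to divergent peaks and 23.7% of those open to distal peaks. Per megabase of such bases there were 105 one-direction peaks on X and 72.3 on the autosomes, and 173 and 183 divergent peaks. The part of the open bases in the tested difference was not tested.

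Over the whole genome the density per megabase of open sequence was 78.5 for one-direction, 182 for divergent and 38.5 for distal peaks. One-direction promoters thus lay between the other classes on this measure. The classes also differ in distance to the nearest 5′ end, with a median of 159 bp for divergent and 266 bp for one-direction peaks. The part of distance in these densities was not tested.

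Summit sequence was richer in G and C than sequence 300 bp further upstream. That flank was set by distance alone, so it can lie in a neighbouring gene or outside the promoter window. In tandem promoters the lower quartile of the distance from summit to upstream neighbour was 258 bp. The motif comparisons of summit and flank below share this limit. The 100 bp at the summit held 43.4% ± 8.82 G and C (SD, n = 815) and the 100 bp upstream flank 34.2% ± 8.66. The summit was higher in 621 peaks, lower in 181 and equal in 13 (two-sided exact sign test, p = 3.54e-57). Divergent summits held 47.3% and distal summits 42.2%. The base content also had a direction: on the strand of the gene the one-direction summits held 30.7% T and 25.9% A, and 23.7% C and 19.7% G.

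Each 6-letter motif, counted with its reverse complement, was compared between the summit and the flank of the same 815 peaks by exact McNemar tests with Benjamini-Hochberg adjustment over all motifs. At an adjusted p under 0.05, 15.5% of motifs were more frequent at summits and 10.6% less frequent. These 542 calls were 343 among the stronger peaks alone, the 410 above the median nuclear signal. Counts of calls under other settings, here and below, rest on different numbers of peaks or lengths of sequence. They are not directly comparable. Base content moved with the 542 calls: motifs of 4 G or C letters had a median ratio of summit to flank of 1.63 and those of none a ratio of 0.440. The ratio of each motif is therefore set beside the median of motifs with as many G and C letters.

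ACGCAG had the smallest p among the motifs that were more frequent at summits. It lay in 112 summit windows (13.7%, exact 95% interval 11.5% to 16.3%) and 14 flanks (1.72%), a ratio of 8 against a median of 1.63 for its composition (adjusted p = 1.92e-17). It was in 2.56% of windows of the same length placed 266 bp upstream of each of 19973 protein-coding genes, not limited to one-direction promoters. The 6-letter motifs CGCAGA, in 13.6% of summits and 2.33% of flanks, and GACGCA, in 14.8% and 2.94%, overlap it in sequence and are not separate findings. The strongest peak, that of F28C10.3 printed above, held it, as did those of F21C10.10, tatn-1, serp-1.1, ZK1290.5 and eelo-2 among the strongest 20. In 4 groups of peaks ordered from high to low signal, of 203 or 204 peaks each, the share was 17.7%, 15.2%, 10.29% and 11.8%. Divergent summits held it in 17.5% and distal summits in 10.5%, and neither difference passed adjustment.

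GA repeats were the next group. GAGAGA lay in 21.3% of summits and 7.24% of flanks, a ratio of 2.95 against 1.15 for motifs of its composition (exact McNemar test, adjusted p = 8.01e-14), and in 6.15% of the windows over all genes. AGAGAG, which overlaps it in any longer repeat, lay in 20.4% and 5.52%. Besides lgg-2, the GA repeat was in the windows of nhr-48, F56H9.2, F02E9.5 and ain-1 among the strongest 20. It was in 16.96% of summits within 300 bp of the 5′ end and in 26.9% of those further upstream, given as a description with no test.

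TGATAA lay in 22.9% of summits (exact 95% interval 20.1% to 26.0%) and 9.20% of flanks. Its ratio of 2.49 stood against 0.603 for motifs of its composition, which as a rule were depleted at summits (exact McNemar test, adjusted p = 2.82e-12). It was in 10.4% of the windows over all genes. None of the strongest 20 peaks held it. The strongest that did was at F26H9.5, a putative phosphoserine aminotransferase, with a signal of 671, 381 in replicate 1 and 304 in replicate 2. That of W07E11.1, an NADH-type glutamate synthase, printed above, had 633, with 438 and 193. In the 4 groups from high to low signal the share was 13.8%, 21.6%, 32.4% and 24.0%. It was 20.8% in the 648 peaks overlapped by high-ranked regions of both replicates and 31.1% in the other 167, with no test. It was in 24.8% of the peaks on X and 22.3% of those on autosomes.

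The E-box core CACGTG lay in 7.36% of summits and 1.96% of flanks, a ratio of 3.75 against 1.63 (exact McNemar test, adjusted p = 5.16e-06), and in 1.53% of the windows over all genes. F21C10.10, mdl-1 and F56H9.2 held it among the strongest 20.

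The receptor cores did not pass the same test over all peaks. AGTGCA lay in 6.01% of summits and 3.68% of flanks (exact McNemar test, adjusted p = 0.103), AGGTCA in 3.44% and 2.70% (exact McNemar test, adjusted p = 0.679) and AGTTCA in 5.77% and 6.75% (exact McNemar test, adjusted p = 0.682). AGTGCA passed when the regions of replicate 2 alone were used (exact McNemar test, adjusted p = 0.0335). Any of them was in 14.1% of summits (exact 95% interval 11.8% to 16.7%) and 12.6% of flanks (10.4% to 15.1%). The share with AGTGCA was 8.87% in the group of highest signal and 2.94% in that of lowest signal, given as a description. A 6-letter match says nothing of whether the receptor contacts it, and no match says only that these letters are not in the window.

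**Figure D3:**
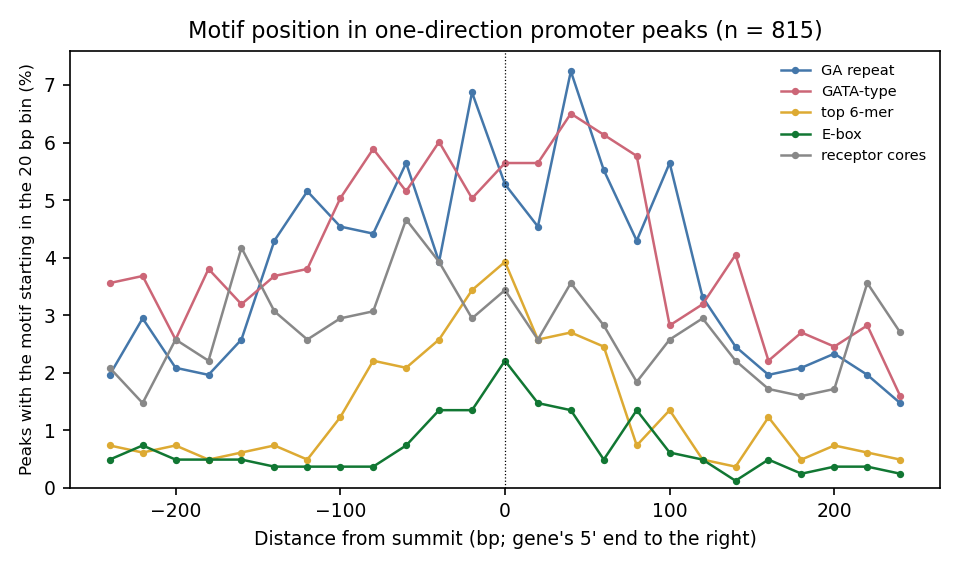
Percentage of the 815 one-direction promoter peaks with a motif starting in each bin of 20 bp (vertical axis) by distance from the summit in base pairs (horizontal axis, with the gene's 5′ end to the right). The motif of smallest p among those higher at summits and the E-box core peak at the summit, at 3.93% and 2.21%. The GA repeat and the GATA-type motif form broad plateaus that reach 7.24% and 6.50%. The receptor cores (any of 3) reach 4.66% at 60 bp upstream of the summit and are at 3.44% at the summit. They are at 1.47% and 3.56% at 220 bp upstream and downstream of it.

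Most peaks with a GA repeat, an E-box core or a GATA-type motif held only 1 of the 3. Whether the motifs met more or less often than their separate shares would give was not tested. At least 1 of the 3 was present in 46.4% of summits and 17.7% of flanks. A single one was present in 336 peaks, 2 in 41 peaks and all 3 in 1, the peak of T09F3.2 printed above, and 437 peaks held none. GA repeat and GATA-type motif met in 20 windows, E-box and GATA-type motif in 16, and GA repeat and E-box in 8, all counts that include T09F3.2.

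Against divergent promoters the GATA-type motif was the clearest difference. TGATAA lay in 22.9% of one-direction summits and in 16 of 229 divergent ones (6.99%, exact 95% interval 4.05% to 11.1%; Fisher's exact test, adjusted p = 1.74e-05). CTTATC, in 14.97% and 4.80%, and GATAAC, in 10.31% and 2.18% (Fisher's exact test, adjusted p = 0.00636 for both), share the GATA letters with it and can be the same sites. These 3 were the 0.144% of all motifs that were higher in one-direction peaks. Motifs with 1 G or C letter, as TGATAA has, had a median ratio of one-direction to divergent share of 1.33. In the stronger peaks alone, those above the median nuclear signal, the difference in TGATAA was 11.1 percentage points and did not pass (Fisher's exact test, adjusted p = 0.292).

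A further 1.25% of motifs were lower in one-direction than in divergent peaks. They were led by CTTGCA, in 4.91% against 14.8%, and ACCGTA, in 3.31% against 12.2% (Fisher's exact test, adjusted p = 0.00131 for both). The GA repeat, the E-box core and the receptor cores were not called in this comparison. Calls in both directions numbered 29, against 14 with promoter windows of 500 bp, 4 among the stronger peaks and 67 with sequence windows of 200 bp.

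Against distal intergenic peaks the GATA-type motif was not called. TGATAA was in 23.7% of them, a difference that did not pass. The motifs higher in one-direction peaks, 0.481% of all, included ACGCGC in 8.96% against 3.14% (Fisher's exact test, adjusted p = 0.00146) and CGTCAG in 6.99% against 2.29% (adjusted p = 0.00377). AAATGC, in 10.9% against 5.19% (Fisher's exact test, adjusted p = 0.00746), was the one of the 10 with no CG. The motifs lower in them, 0.0481%, were ATGATC alone, in 2.45% against 7.25% (Fisher's exact test, adjusted p = 0.00377). Calls in both directions numbered 11, against 39 and 2 with promoter windows of 500 and 2000 bp, 4 among the stronger peaks, 26 with sequence windows of 200 bp and 21 without replicate 1.

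**Figure D4:**
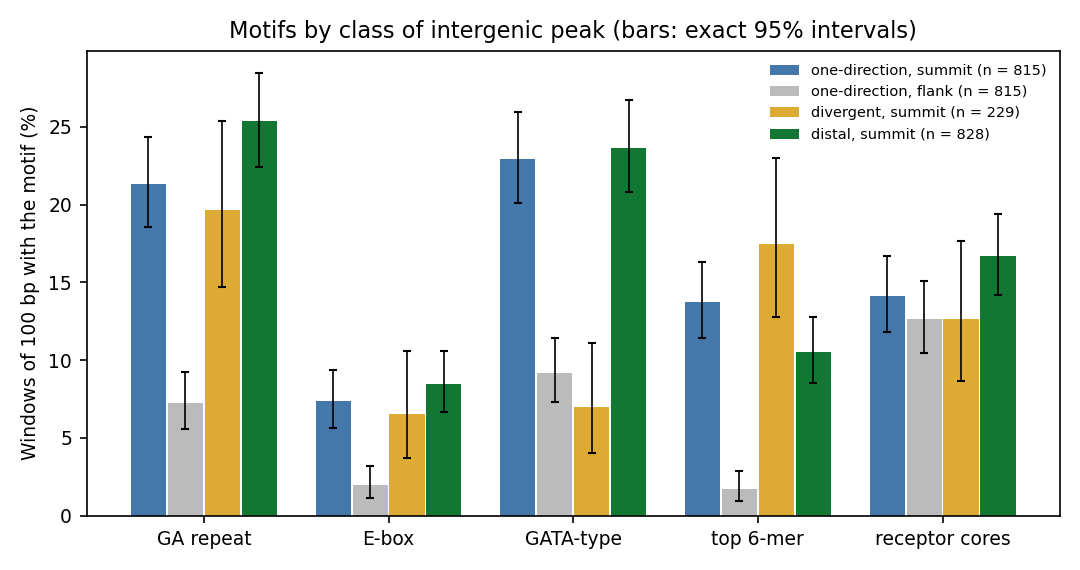
Percentage of 100 bp windows with each motif (vertical axis) at the summits and upstream flanks of one-direction promoter peaks and at the summits of divergent and distal peaks; bars carry exact 95% intervals, the top 6-mer is the one of smallest p among those higher at summits, and receptor cores means any of 3. The GATA-type motif is at 22.9% in one-direction, 6.99% in divergent and 23.7% in distal summits.

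The promoters face 1 gene in 792 peaks, 2 in 22 and 3 in 1, always of one strand, so motifs could be read by strand. Of 2016 motifs that differ from their reverse complement, 3.77% were found more often on one strand than on the other (exact binomial tests against an equal share, Benjamini-Hochberg adjustment). The calls numbered 76, but 3 among the 410 stronger peaks, 26 without chromosome X, 47 with promoter windows of 500 bp and 296 with sequence windows of 200 bp. These settings differ in the number of peaks or the length of sequence, so their counts are not directly comparable. Of the 76, each read in the orientation found more often on the strand of the gene, 73 had more T than A and 0 had more A. TTTTCT lay on the strand of the gene alone in 157 windows and on the opposite strand alone in 67 (exact binomial test, adjusted p = 3.36e-06), and TTCTCT in 132 and 56 (adjusted p = 2.97e-05). Each of the 64 motifs made of T and C alone was more often on the strand of the gene, and 28 of them passed the test.

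The GA repeat shared that direction. Read as TCTCTC, it lay on the strand of the gene alone in 108 summits and on the other alone in 56 (exact binomial test, adjusted p = 0.00702). TCTCTC did not pass among the 410 stronger peaks (exact binomial test, adjusted p = 0.762). The gene strand led by 20 windows there, against 52 in all one-direction peaks. Nor did TCTCTC pass with promoter windows shortened to 500 bp before and 100 bp after the 5′ end (exact binomial test, adjusted p = 0.0713). ACGCAG, read as CTGCGT, lay on the strand of the gene alone in 68 and on the other alone in 42, which did not pass (exact binomial test, adjusted p = 0.183). The GATA-type motif did not pass either, with TTATCA in 96 and 77 (exact binomial test, adjusted p = 0.631).

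The same lean was present outside the summits. In the upstream flanks TTTTCT lay in 138 and 69 windows and TCTCTC in 37 and 19, and of the 76 motifs called at summits 65 leaned to the same strand in the flanks. The flanks alone gave 7 calls. Whether the lean differs between summit and flank was not tested.

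The genes with a one-direction peak were also counted by family and tissue, each list beside the 3.94% of all protein-coding genes. These shares are descriptions, since a gene can be counted only where its promoter is of the one-direction kind. A low share therefore does not mean that a family lacks peaks. With peaks of any class in the promoter window, ribosomal protein genes went from 13 to 39 and histone genes from 2 to 12. Germline and oocyte markers stayed at 0. Among transcription factors, 10 of 26 bZIP genes (38.5%) held such a peak. They include cebp-1, a C/EBP homologue, with a signal of 402, xbp-1, a factor of the unfolded protein response of the endoplasmic reticulum, with 292, and atf-4, of the integrated stress response, with 288. Of 39 bHLH genes, 6 did (15.4%), with mdl-1 at 1383, hlh-11 at 475.8 and mxl-3 at 313. Of 275 nuclear hormone receptor genes, 21 did (7.64%), led by nhr-48 with 1023, nhr-58 with 544 and nhr-119 with 523.

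Of the other regulator lists, the homeobox list had 1 of 89 genes, ceh-60 with a signal of 153, and the zinc finger and T-box list 1 of 58, klf-1 with 158. The GATA factor list had 1 of 10, elt-2, the main GATA factor of the intestine, with 150. Heterochronic genes, which time larval development, had 5 of 17 (29.4%), led by lin-66 with 288, lin-14 with 130 and lin-28 with 120.

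Lists of protein synthesis and turnover ran from 3.03% to 16.05%. Ribosomal protein genes had 13 of 81 (16.05%), with rpl-3 at 1631, rpl-35 at 742 and rpl-11.2 at 354. Translation factors and tRNA synthetases had 5 of 59 (8.47%), led by aars-2, an alanyl-tRNA synthetase, with 531, eif-3.C with 344 and eef-1A.2 with 317. Heat shock and DnaJ genes had 4 of 51 (7.84%), with hsp-1 at 460, hsp-3 at 417 and dnj-9 at 372. Lysosome and autophagy genes had 11 of 80 (13.8%), with lgg-2 at 1174, epg-7 at 360 and cpr-4, a cathepsin B-like protease, at 339. The proteasome list had 1 of 33, rpn-11 with 189.

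Metabolic and detoxification lists were mixed. UDP-glucuronosyltransferases, which conjugate small molecules, had 9 of 67 (13.4%), led by ugt-20 with 369, ugt-49 with 203 and ugt-62 with 172. Glutathione S-transferases had 5 of 49 (10.2%), led by gst-7 with 215, gst-27 with 208 and gst-1 with 155. ABC transporters had 7 of 52 (13.5%), led by mrp-5 with 288, pmp-5 with 147 and mrp-3 with 145. Cytochrome P450 genes had 0 of 74, but 6 held a peak of any class in their promoter window. Fatty acid metabolism had 8 of 99 (8.08%), led by acs-2, an acyl-CoA synthetase, with 196, elo-1 with 189 and lbp-3 with 126. Solute carriers and amino acid transporters had 3 of 76 (3.95%): slc-36.4 with 982, hmit-1.3 with 253 and pept-1 with 146.

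**Figure D5:**
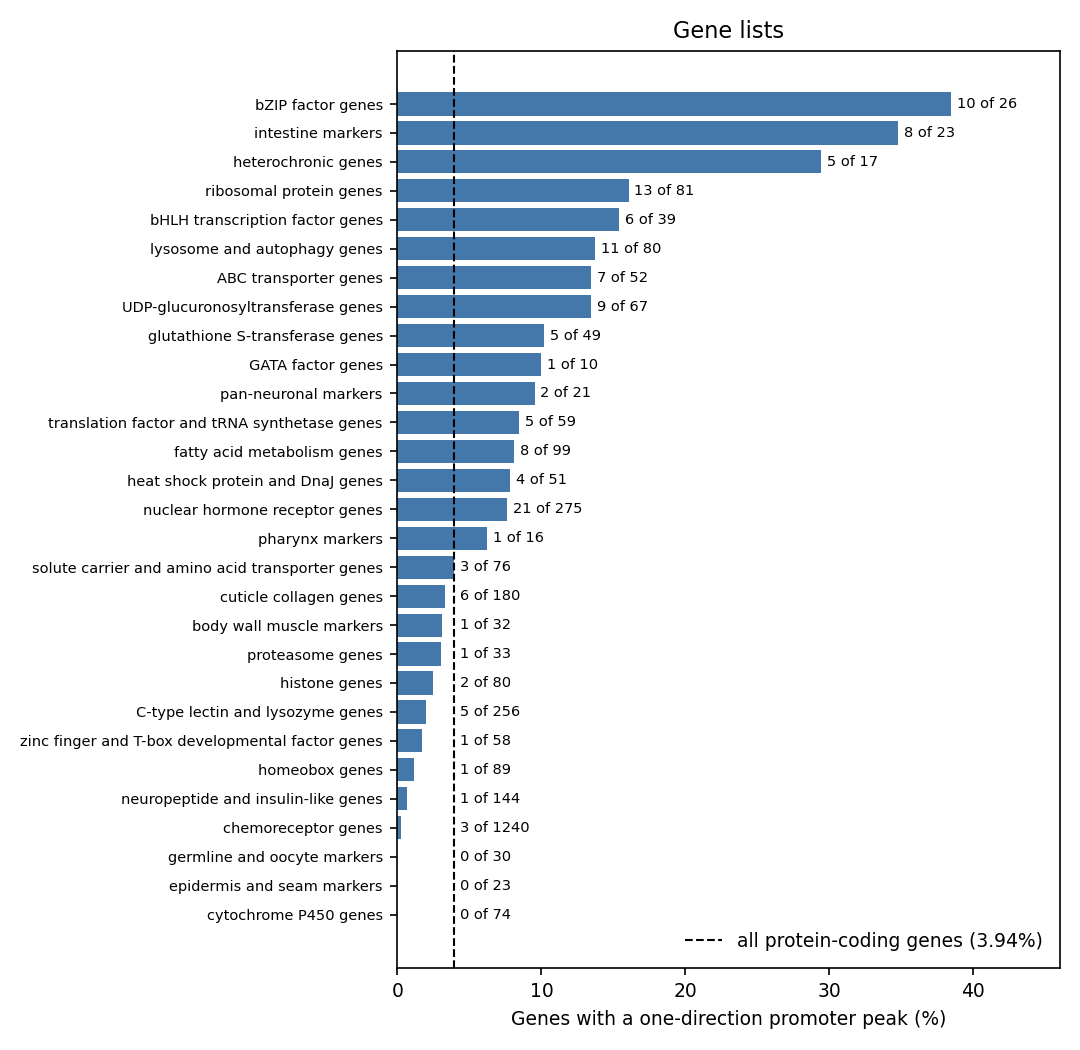
Percentage of the genes of each list with a one-direction promoter peak (horizontal axis; counts beside the bars), with the 3.94% of all nuclear protein-coding genes as a dashed line. The bZIP list stands at 38.5% and intestine markers at 34.8%, while chemoreceptors stand at 0.242% and 3 lists at 0.

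Tissue marker lists were short, and the animals were taken whole. Intestine markers had 8 of 23 genes (34.8%), led by act-5, the actin of microvilli, with 208, elt-2 with 150 and pept-1, a peptide transporter, with 146; 5 of the 8 also stand in lists of gene families. The neuronal list had 2 of 21, snb-1 with 135 and rgef-1 with 106, the pharynx list 1 of 16, pha-4 with 139, and the muscle list 1 of 32, unc-60 with 98.4. Epidermis and seam markers had 0 of 23 and germline and oocyte markers 0 of 30.

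The remaining families were below the share of all genes. Chemoreceptors had 3 of 1240 (0.242%): srh-17 with 408, srh-76 with 373 and sre-23 with 267. Neuropeptide and insulin-like genes had 1 of 144, ins-39 with 577. C-type lectins and lysozymes had 5 of 256 (1.95%), led by ilys-5 with 270, clec-150 with 216 and clec-186 with 153, cuticle collagens 6 of 180 (3.33%), led by col-65 with 181, col-168 with 150 and col-77 with 124, and histone genes 2 of 80, his-37 with 683 and his-42 with 112. Which of these genes are expressed in L4 larvae was not measured in these data.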

How the data were processed

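The authors deposited lists of regions with a signal value and a summit each, on ce11 for the values used here. Per the deposited file listings, the list of each replicate and a pooled list hold peaks with background called against 1 control file, and the optimal list was derived from them by the irreproducible discovery rate (IDR) procedure. The IDR threshold, the read aligner and the peak caller are not given in the sources used here. Signal is on the caller's scale, read depth is unknown, and precision is limited by the number of peaks.

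Members, gene lists and tests were chosen with earlier results of these data known. The 3361 IDR peaks include 23 mitochondrial ones, left out. Gene models were those of Ensembl release 115 and sequence that of the RefSeq assembly of the same build. Classes were compared by two-sided Fisher's exact tests, with Benjamini-Hochberg adjustment over 6 tests, and 6-mers over all 2080 or, by strand, 2016. Exact Clopper-Pearson intervals assume independent peaks and hold counting error only. Named genes were those of the 20 strongest peaks, genes with 3 or more summits, up to 3 of each of 29 gene lists by signal, nhr-48 and the peaks nearest the limits; other names were chosen after their values were seen. The motifs of smallest p were taken among those more frequent at summits. Open bases and the windows over all genes were added after the values were seen. Alternatives were other promoter windows, tRNA limits, gene masks, flanks, window widths, overlap rules, the stronger peaks, 1 summit per overlap group and each replicate alone. Python 3.11.15, scipy 1.17.1, numpy 2.4.6, matplotlib 3.10.9 and pandas 2.3.3 were used. The 6-mer tests were tried on simulated windows that all had the same base composition. Those cannot show how the tests behave where summit and flank differ in G and C.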

Additional observations from a re-analysis of the deposited data

How the results depend on the processing

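Of all values recomputed under alternatives, 361 kept their side of the threshold or stayed within 1.5 times, and 15 counts moved further. Another 5 results newly passed, 3 no longer passed, and 0 changed direction with a value that passed. Changes of direction in which neither value passed were counted as kept. For example, the share above the median signal was -2.83 percentage points from that of distal peaks, but 2.61 among the stronger peaks. The latter value used the median of the stronger peaks themselves, a higher threshold. With promoter windows of 500 bp before and 100 bp after the 5′ end, 14 motifs differed from divergent peaks, 39 from distal peaks and 47 by strand, against 29, 11 and 76. By Fisher's exact test with 2000 bp before it, the share overlapped in both replicates was lower than in divergent (-6.69 percentage points, adjusted p = 0.0134) and distal peaks (-5.07, adjusted p = 0.0247). That window also put the share above the median signal (-6.48, Fisher's exact test, adjusted p = 0.0240) and the share on X (-7.35, adjusted p = 0.00584) below those of distal peaks, from which 2 motifs then differed. Keeping only the stronger peaks left 410 peaks at 405 genes and 343 motifs between summit and flank, 4 against divergent, 4 against distal peaks and 3 by strand. Windows of 200 bp gave 67, 26 and 296 for the last 3. Without chromosome X, added after the values were seen, 26 motifs were called by strand, and TGATAA stayed 15.4 percentage points above divergent peaks (Fisher's exact test, adjusted p = 2.35e-04). With each replicate alone, motifs differing from distal peaks numbered 9 without replicate 2 and 21 without replicate 1. AGTGCA then passed between summit and flank without replicate 1 (2.89 percentage points, exact McNemar test, adjusted p = 0.0335). TGATAA against divergent peaks passed under 10 of 11 alternatives (Fisher's exact test, adjusted p from 1.11e-05 to 0.292), and the share on X against divergent peaks under 9 of 9. The causes were not tested. Overlap in both replicates has no value with a replicate left out, and the share on X none without X. No paired analysis was possible because both libraries belong to 1 group. Unknown depth sets no limit that could be computed here.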
